A study of Capra hircus with 4 samples.

Results

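Barcodes of the goat pancreas were labelled T and NK lymphocytes by a rule on their own RNA counts. Of 17982 barcodes 265 met it (1.47%, exact binomial interval 1.30% to 1.66%). All 265 are called lymphocyte barcodes below, but the NK part of the label was not borne out. Of these barcodes, 19 lacked CD3E, CD3D and CD3G and carried genes known from myeloid cells. A barcode, which stands for 1 captured droplet, had to hold at least 3000 unique molecular identifiers (UMIs, counted RNA molecules) and 500 genes. It also had to hold at least 2 of the T cell genes CD3E, CD3D, CD3G, CD2, CD5 and IL7R and at least 2 of the leukocyte genes PTPRC, CORO1A, LAPTM5 and CD53. Barcodes were left out at 5 or more UMIs of C1QA, C1QB and C1QC together, at 10 or more of S100A8 and S100A9, at 2 or more of MS4A1 and CD79B, or at 3% or more of UMIs from INS or from PPY. These genes selected the barcodes, so their levels are given below only as descriptions.

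The study took pancreas from Liuyang black goats at 2 ages, 2 animals aged 10 days that did not yet ruminate and 2 aged 6 months that did. The labels describe the donors as twin female goats. They report digestion with collagenase IV, dispase and DNase I, lysis of red blood cells, removal of dead cells, and capture with 10x Genomics 3' version 3 chemistry at a target of 8000 cells. All 4 libraries lie in 1 matrix and are told apart only by numbers, which the labels match to neither goats nor ages. No library was therefore given an age, and the ages were not compared. No genotype, strain other than the breed, or treatment is named. Digestion and dead cell removal decide which lymphocytes reach the droplets, and resident and blood-borne lymphocytes cannot be told apart in such a suspension.

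T cells recognise antigen with a receptor whose variable chains, alpha with beta or gamma with delta, signal through the CD3 proteins. CD4 and CD8 are coreceptors for antigen presented on MHC class II and class I. CD8 T cells and NK cells kill through granules that hold perforin, granzymes and granulysin, and NK cells do so without CD3 or a rearranged receptor. Ruminants are known for many gamma-delta T cells in young animals. In the healthy pancreas lymphocytes are sparse and lie between acini and along ducts and vessels.

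The libraries differed widely in how many lymphocyte barcodes they held. They made up 99 of 3203 barcodes of library 1 (3.09%, interval 2.52% to 3.75%) and 152 of 3329 of library 4 (4.57%, 3.88% to 5.33%). Library 2 held 9 of 6618 (0.136%, 0.0622% to 0.258%) and library 3 held 5 of 4832 (0.103%, 0.0336% to 0.241%). Exact binomial intervals here, and Poisson intervals of UMI counts below, cover counting error only. Since the libraries cannot be placed in groups, values are given per library, with no test and no p-value. Which cells an animal's pancreas held and which cells the digestion released cannot be told apart in these shares.

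**Figure D1:**
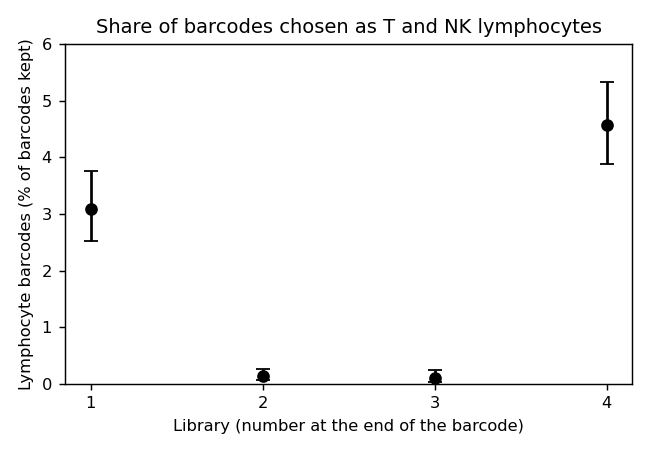
Share of lymphocyte barcodes among all barcodes of at least 3000 UMIs and 500 genes (y axis, percent) in libraries 1 to 4 (x axis), with exact binomial intervals. Libraries 1 and 4 sit at 3.09% and 4.57%, and libraries 2 and 3 at 0.136% and 0.103%.

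The lymphocyte barcodes were shallow, with a median of 4203 UMIs and 1515 genes against 6394 UMIs in the other barcodes, and 168 of 265 held under 5000 UMIs. The limit of 3000 UMIs passed through a dense range: 125 further barcodes met the rest of the rule at 2500 to 3000 UMIs and 77 of the 265 lay at 3000 to 3500. Just inside the limit on T cell genes, 46 barcodes held 2 of them, and just outside it 77 held 1. Of the 335 barcodes with enough T cell and leukocyte genes, 25 failed the limit on C1Q genes, 20 that on S100A8 and S100A9, 27 that on INS, 12 that on PPY and 9 that on MS4A1 and CD79B, with some failing several. No barcode sequence of the 265 was shared between libraries (0 of 265, against 34 of 17948 among all barcodes kept). Levels below are CPM, the summed UMIs of a gene in a group of barcodes scaled to all UMIs of that group in the usual way.

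The genes that define each lineage were counted first. The CD3 and leukocyte genes are part of the rule, so their counts describe the selection and cannot check the label. CD3E, a signalling chain of the T cell receptor complex, was found in 241 of 265 barcodes, with 91 of 99, 8 of 9, 3 of 5 and 139 of 152 in libraries 1 to 4. Its median was 7 UMIs per barcode (range 0 to 26). CD3G was found in 212 barcodes, CD3D in 160, IL7R in 156, CD2 in 139 and CD5 in 66. Of the leukocyte genes, CORO1A was found in 252, LAPTM5 in 250, PTPRC in 239 and CD53 in 148. At least 1 of the 3 CD3 genes was present in 246 barcodes (92.8%). After each barcode was thinned at random to 3000 UMIs that share was 90.2% (interval 86.0% to 93.5%), against 0.989% in barcodes of stellate cells and fibroblasts, which should lack CD3. Those stellate barcodes were defined by at least 20 UMIs of COL1A1, COL1A2 and COL3A1 together and fewer than 2 of the leukocyte genes. The limit on leukocyte genes left out barcodes with more leukocyte RNA. The low shares in stellate barcodes, here and below, thus partly follow from their definition.

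The NK cells of the label were not borne out by the matched genes. NCR1, the activating receptor NKp46 that marks NK cells, was found in 5 barcodes (3 in library 1 and 2 in library 4), each with 1 UMI and each with CD3. KLRF1, another NK receptor, was found in 11, EOMES, a transcription factor of NK and memory T cells, in 9, and NCAM1 in 2. In the thinned barcodes NCR1 was present in 1.51% and KLRF1 in 3.77%, against 0% in stellate barcodes. The rule asks for T cell genes, and barcodes with NK genes lay outside it: among those that met every other limit, KLRF1 was found in 13 of 166 with none of the T cell genes and in 9 of 77 with 1. KLRB1, KLRD1, KLRK1, KLRC1, GZMB and FCGR3A were not matched by symbol in the feature list and were not used here. The 19 barcodes that lacked CD3 are described first. They stay in the counts over 265 barcodes and in the comparisons with other cells, unless a sentence says otherwise.

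Those 19 barcodes (5, 1, 2 and 11 in libraries 1 to 4) carried genes known from antigen-presenting myeloid cells and some B and plasma cell genes, and no UMI of NCR1 or KLRF1. They had entered mostly through CD2, found in 18, and CD5, found in 13, and they were deep, with a median of 9235 UMIs against 4119 in the 246 with CD3. CD74, the invariant chain that escorts MHC class II, stood at 15288 CPM (interval 14718 to 15874) and was found in 19 of 19, against 86.2 CPM (71.1 to 103.6) and 68 of 246 in barcodes with CD3. IRF8, a transcription factor of dendritic cells, was found in 14 of 19 and 6 of 246. FLT3, the growth factor receptor of dendritic cells, was found in 13 of 19 and 0 of 246. AIF1, a myeloid gene, was found in 13 of 19 and 2 of 246, CLEC9A in 5 and 0, and XCR1 in 4 and 2. Of the B and plasma cell list, CD79A, a chain of the B cell receptor, was found in 10 of 19 (192 CPM) and 26 of 246 (35.5 CPM), BANK1 in 7 (62.0 CPM) and 22 (19.7 CPM), and MZB1 in 6 (344 CPM) and 6 (342 CPM). MS4A1, CD79B, PAX5 and TNFRSF17 had no UMI in the 19. FCER1G and TYROBP, adaptors shared by NK and myeloid cells, were found in 16 and 14 of the 19. GNLY, CTSW, LCK, NCR1, KLRF1 and the beta-locus receptor genes described below were found in 0 of 19, which allows a share of up to 15.8% of such barcodes with a UMI (3 of 19) and sets no limit on expression. No new cell type name was given to these barcodes.

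Set against the 246 with CD3, 11 of 169 measured list genes were higher by at least 1 on the scale log2(CPM + 1) in barcodes without CD3, where 6.14% of 4515 genes were, and 86 were lower, where 36.3% were. The counts were summed over libraries, since no library held 20 barcodes on both sides, and the split used the CD3 genes themselves. A gene was measured with at least 20 UMIs on its higher side, out of 177525 UMIs without CD3 and 1322306 with CD3. Genes low without CD3 thus passed more easily, and the numbers higher and lower cannot be weighed against each other. The list median was -1.18, or -0.77 with the 49 genes at 0 on 1 side set to a floor of 3 counts, against -0.57 over all genes. Among the lower genes, GNLY was at least 294-fold, CTSW at least 60.5-fold, BCL11B at least 13.5-fold and LCK at least 12.4-fold lower against that floor over the group. Against the same floor CD4 was only at least 1.03-fold and KLRF1 at least 0.940-fold lower. Not every gene called lower is thus shown to differ. Among the higher genes were CD74, TYROBP, FCER1G and the phosphatase gene PTPN6 (366 against 79.4 CPM).

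The receptor chains gave a second view of the lineage that the rule did not use. The goat feature list names these genes only by LOC numbers. RefSeq's table of assembly ARS1.2 marks them as constant-region genes and gives their named neighbours, from which the locus can be read: in mammals the beta chain locus lies by EPHB6 and PRSS2, the alpha and delta loci by DAD1, and the gamma locus by AMPH and STARD3NL. Such genes have near-identical copies, and the sources used here do not say how reads were divided between copies, so counts of single copies are uncertain. Of the 3 beta-locus genes, LOC102179835 was found in 224 barcodes, LOC108635873 in 133 and LOC108635874 in 127.

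Together the beta-locus genes were found in 239 of 265 barcodes (90.2%), with 91 of 99, 8 of 9, 1 of 5 and 139 of 152 in libraries 1 to 4. The thinned share was 86.0% (interval 81.3% to 90.0%), against 0.207% in stellate barcodes. Gamma-locus genes beside AMPH, LOC102168416 and LOC102191761, were found in 86 barcodes, 23.0% after thinning (18.1% to 28.6%), against 0.0460% in stellate barcodes. Those beside STARD3NL, LOC108635901, LOC108635902 and LOC102179160, were found in 14. Of the 86 barcodes with an AMPH-side gamma gene, 82 also held a beta-locus gene, so the 2 kinds of chain were not exclusive.

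By contrast, the pair of constant genes between SALL2 and DAD1 was rarely found together. LOC102182508 was found in 175 barcodes, 62, 4, 2 and 107 of them in libraries 1 to 4. LOC102181959 was found in 57, at 23, 1, 3 and 30 in libraries 1 to 4. It was present in 5 of the 19 barcodes without CD3 and in 52 of the 246 with CD3. Its presence alone therefore does not mark a T cell barcode here. LOC102182508 was present in 1 of the 19 and 174 of the 246. Both were present in 9 barcodes, LOC102182508 without the other in 166, LOC102181959 without the other in 48, of which 44 had CD3, and neither in 42. The alpha and delta constant genes lie in this interval in mammals, and which of the pair is which is not named in the files.

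The other chains and the lineage genes were then counted in both classes. Beta-locus UMIs averaged 12.2 per barcode in the 166 with LOC102182508 alone and 6.30 in the 44 with LOC102181959 alone and CD3. AMPH-side gamma UMIs averaged 0.572 and 2.98. LOC102191204, a protein-coding gene in the stretch between LSM8 and AMPH, was found in 57 of 166 and 39 of 44, at 214 and 1296 CPM. CD8B, the beta chain of CD8 on conventional T cells, was found in 78 of 166 and 4 of 44, CD40LG in 45 and 2, CD28, the costimulatory receptor, in 25 and 0, and CD5 in 45 and 3. CD4 was found in 18 and 0. FCER1G was found in 16 of 166 and 21 of 44, at 84.0 and 496 CPM, and SOX13, a transcription factor of gamma-delta T cells, in 0 of 166 and 5 of 44. The 2 classes had similar median depths, 4146 and 3934.5 UMIs. These are counts of barcodes pooled over libraries 1 to 4, mostly from libraries 1 and 4, and no difference between them was tested.

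CD8 genes were found in far more barcodes than CD4. CD8A or CD8B was present in 123 of 265, with 41 of 99, 0 of 9, 1 of 5 and 81 of 152 in libraries 1 to 4. CD4 was present in 19, with 6 of 99, 1 of 9, 0 of 5 and 12 of 152. After thinning the shares were 37.4% (interval 31.5% to 43.5%) for CD8 and 3.40% (1.56% to 6.35%) for CD4, against 0.770% and 0% in stellate barcodes. In library 1 the thinned shares were 36.4% and 3.03%, and in library 4 40.8% and 3.95%, so both larger libraries showed the same order. Among only the barcodes with CD3 the shares were 39.8% and 3.66%. No more than 3 CD4 UMIs were found in any barcode, and 125 barcodes held neither coreceptor, so a barcode without CD4 UMIs is not shown to lack CD4. CD8 without CD4 was found in 121 barcodes, of which 117 had CD3, CD4 without CD8 in 17, all with CD3, and both in 2. Of the 125 with neither, 110 had CD3.

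**Figure D2:**
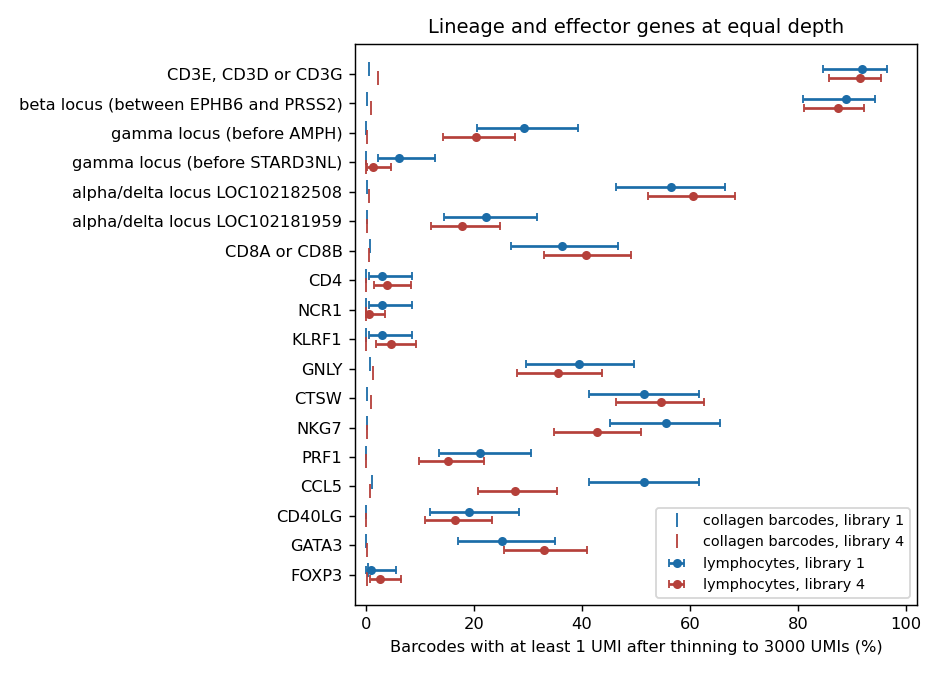
Barcodes with at least 1 UMI of each gene or gene set (y axis) after thinning to 3000 UMIs (x axis, percent), with exact binomial intervals, in the 99 lymphocyte barcodes of library 1 (blue) and the 152 of library 4 (red). Vertical ticks give the same share in collagen-rich stellate barcodes of the same library; CD3 and beta-locus genes sit near 90%, CD8 near 40% and CD4 near 4%.

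Helper and killing genes were counted in the barcodes with CD4 alone and with CD8 alone. All 17 with CD4 alone held LOC102182508, and 15 held CD69, an early activation marker that also holds T cells in tissue. CD40LG, the helper signal to B cells and macrophages, was found in 10 of 17 against 15 of 121 with CD8 alone. GATA3, a transcription factor of helper and developing T cells, was found in 11 of 17 and 26 of 121, IL7R in 12 and 65, and LEF1, a factor of naive T cells, in 7 and 3. CTSW, a cathepsin of cytotoxic lymphocytes, was found in 2 of 17 and 107 of 121, NKG7 in 2 and 89, CCL5 in 1 and 69, GZMA in 0 and 56, and PRF1 in 0 and 39. Median depths were 4357 and 4254 UMIs.

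On summed counts, 29 of 109 measured list genes were higher by at least 1 on the scale log2(CPM + 1) in CD8 barcodes, where 33.9% of 2552 genes were, and 17 were lower, where 2.78% were. The list median was 0.11, or 0.08 with the 10 genes at 0 on 1 side set to the floor, and that of all genes 0.51. The share of higher list genes thus lay near the background. The CD8 side held 656012 UMIs and the CD4 side 85571. The minimum of 20 UMIs on the higher side let genes higher in CD8 barcodes pass more easily. The numbers higher and lower cannot be weighed against each other here either. GZMA stood at 378 CPM in CD8 barcodes and 0 in CD4 barcodes, at least 10.8-fold higher against a floor of 3 counts over the group. Against that floor CD226 was only at least 1.09-fold and SLAMF7 at least 0.870-fold higher in CD8 barcodes, so not every gene called higher is shown to differ. GNLY stood at 8168 CPM against 234 CPM, CTSW at 1570 against 187 and CCL5 at 1076 against 23.4, the last from 2 UMIs. LTB, a cytokine of lymphoid tissue, stood at 113 CPM in CD8 against 654 in CD4 barcodes, GATA3 at 65.5 against 374 and S1PR1, the receptor for exit into blood, at 51.8 against 292. The lower genes included MKI67, TOP2A, UBE2C and BIRC5, and their CD4 counts came from few barcodes: MKI67 and TOP2A were each found in 2 of 17. With only the barcodes that held CD3 the counts were 26 higher and 18 lower. Without library 4 they were 19 higher and 4 lower, and no library held 20 barcodes on both sides.

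Granulysin, a granule protein that perforates membranes of microbes and target cells, was unevenly spread over the barcodes. GNLY held 6575 UMIs in 104 of 265 barcodes, 40, 5, 2 and 57 of them in libraries 1 to 4. Where present, its median was 20.5 UMIs and its highest count 547, which was 1.18% and up to 11.7% of a barcode's UMIs. The 77 barcodes with at least 5 UMIs held 99.3% of them. In library 1 the median among barcodes with GNLY was 42 UMIs (highest 422), and in library 4 it was 16 (highest 547). GNLY was found in 69 of 121 barcodes with CD8 alone, 34 of 125 with neither coreceptor, 1 of 17 with CD4 alone and 0 of 2 with both. Each of the 104 had CD3, so GNLY was found in 69 of 117 with CD3 and CD8 alone and in 34 of 110 with CD3 and neither coreceptor.

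**Figure D3:**
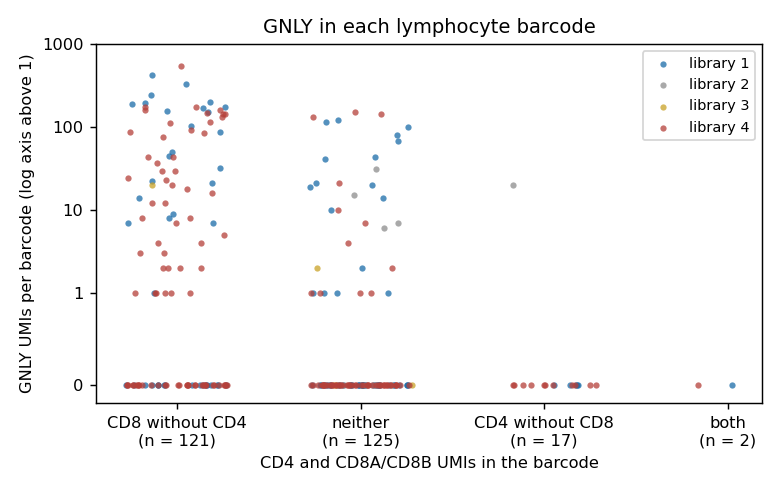
GNLY UMIs (y axis, log scale above 1) in each of the 265 lymphocyte barcodes, by the coreceptor UMIs in the barcode (x axis), coloured by library; points are spread sideways at random. Barcodes with CD8 alone reach 547 UMIs, those with neither coreceptor 152, and 1 of the 17 with CD4 alone holds any.

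Other killing genes were counted in the 77 barcodes with at least 5 GNLY UMIs and in the 142 that had CD3 and no GNLY. The 19 barcodes without CD3, which held no GNLY either, were left out here. CTSW was found in 75 of 77 and 55 of 142, NKG7, a granule membrane protein, in 68 and 55, CCL5, a chemokine stored in cytotoxic granules, in 59 and 33, GZMA in 51 and 15, PRF1 in 33 and 18, and GZMM in 29 and 8. TBX21, the transcription factor T-bet, was found in 37 of 77 and 20 of 142, and CX3CR1, a receptor of circulating effector cells, in 20 and 2. For genes of less differentiated or helper T cells the counts ran the other way, with GATA3 in 8 and 68, ICOS in 8 and 55, TCF7 in 3 and 47, LEF1 in 0 and 31, and CD40LG in 6 and 42. The 27 barcodes with 1 to 4 GNLY UMIs held IL7R in 23, GATA3 in 15 and GZMM in 0. Most of the 27 also held CTSW, so they did not lack killing genes as a group. Median depth was 3896 UMIs with at least 5 GNLY UMIs and 4291.5 with CD3 and no GNLY. The share of barcodes with GNLY was 64.2% at 1000 to 2000 UMIs, below the limit of the rule, and 30.9% at 5000 and more, so it moves with that limit. The differences were not tested.

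**Figure D4:**
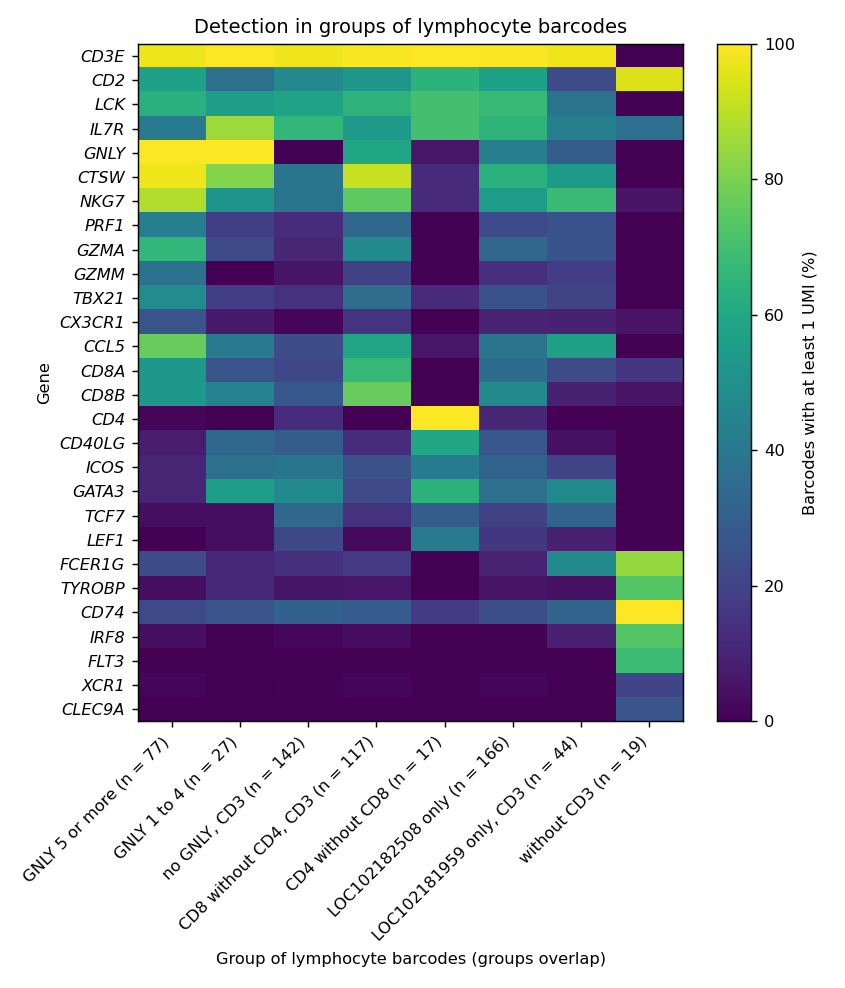
Percent of barcodes with at least 1 UMI (colour) for 28 genes (rows) in 8 overlapping groups of the 265 lymphocyte barcodes (columns), counts not thinned; the 19 without CD3 are in the last column only. CTSW, NKG7 and CCL5 are brightest with at least 5 GNLY UMIs, CD40LG and GATA3 with CD4, and CD74, FCER1G, TYROBP, IRF8 and FLT3 without CD3.

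Counts for genes of helper subsets, regulation and exhaustion ranged widely. GATA3 was found in 91 of 265 barcodes, ICOS in 73 and TBX21 in 62. FOXP3, the regulatory T cell factor, was found in 6 barcodes, at 1.89% after thinning against 0.195% in stellate barcodes. CTLA4, an inhibitory receptor, was found in 17, PDCD1 in 37, LAG3 in 15, HAVCR2 in 11, of which 5 lacked CD3, and TIGIT in 5. Among cytokines, IFNG was found in 7 barcodes, IL17F in 5, IL4 and IL13 in 3 each, and IL17A in 2. All 11 IL22 UMIs lay in 1 barcode of library 4. LTB was found in 77 barcodes, TNFSF14 in 66, CD40LG in 57 and TNF in 36.

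Residence and recirculation genes were found side by side in the set. CXCR4, the receptor for CXCL12, was found in 157 barcodes, RGS1, a brake on chemokine signals in tissue lymphocytes, in 167, CD69 in 118 and CXCR6 in 54. ITGA1, a collagen-binding integrin of resident cells, was found in 37, ITGAE, which binds E-cadherin on epithelium, in 22, and ZNF683 in 13. CCR7 was found in 7 and S1PR1 in 58.

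Libraries 1 and 4, which held 251 of the barcodes, differed in several of these genes, and their values are given without a comparison of ages. After thinning, CCL5 was found in 51.5% of barcodes in library 1 (interval 41.3% to 61.7%) and 27.6% in library 4 (20.7% to 35.5%). NCR3, the receptor NKp30, was found in 24.2% and 6.58%, and MKI67 or TOP2A, genes of dividing cells, in 11.1% and 1.97%. The shares for MKI67 or TOP2A came from 11 and 3 barcodes. In the other direction CD69 was found in 20.2% and 44.7%, and TCF7 or LEF1 in 15.2% and 26.3%. The intervals of TCF7 or LEF1 overlapped (8.74% to 23.8% in library 1 and 19.5% to 34.1% in library 4). GNLY stood at 39.4% and 35.5%, CTSW at 51.5% and 54.6%, and CD8 at 36.4% and 40.8%. Acinar genes moved with the library as well: the 10 matched acinar markers summed to 6807 CPM in library 1 and 3487 CPM in library 4, and the 11 stellate markers to 3077 and 10712 CPM. Their part in these values was not tested.

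RNA of other pancreatic cells was present in the lymphocyte barcodes. Stellate genes exceeded 2% of UMIs in 26 barcodes (3, 4, 2 and 17 in libraries 1 to 4), acinar genes in 13, B and plasma cell genes in 2 and endocrine genes in 1. Of the 10 B and plasma cell markers MS4A1 and PAX5 were at 0, and the set summed to 3901 CPM in library 1 and 155 CPM in library 4. JCHAIN, the joining chain of secreted antibody, held 1687 UMIs, of which 92.0% lay in 2 barcodes, and the antibody V segment LOC102176353 had 72.9% of its 24728 UMIs in 2 barcodes. INS was found in 243 barcodes at a median of 3 UMIs, and it made up 1.97% of the UMIs of near-empty barcodes (10 to 100 UMIs) in library 1 and 3.23% in library 4. LOC108634769, a protein-coding gene with no name in the files and the most abundant gene of the lymphocyte barcodes in library 4, made up 3.11% of their UMIs there and 70.4% of the near-empty UMIs. CD3E made up 0.129% of member UMIs and 0.00240% of those near-empty UMIs in library 1, and 0.155% and 0.00275% in library 4. The part of other cells' RNA in the results was not tested.

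The lymphocyte barcodes were then set against all other barcodes kept, to show how the gene lists stood in them. A gene was called when its difference in log2(CPM + 1) reached 1 with the same sign in every library with at least 20 barcodes on both sides and at least 20 UMIs on the higher side, which left libraries 1 and 4. The pseudocount understates differences of low genes. Of 149 measured list genes, 94 were higher, where 6.40% of 9292 genes were, and 5 were lower, where 27.5% were. The list median was 2.44 and that of all genes -0.72. The lower count was 12 without library 1 and 10 without library 4. The higher count was 162 with no count minimum, 60 at 5000 UMIs and 32 at 1000 UMIs, and 91 with only the barcodes that held CD3. The lists were chosen for lymphocytes and the members for T cell genes, so the direction is a description.

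Killing genes and the adaptor gene HCST led the list genes higher than in other barcodes. GNLY stood at 5913 CPM (interval 5712 to 6118) in library 1 and 3916 CPM (3781 to 4054) in library 4, against 5.72 and 64.1 CPM in the other barcodes. CTSW stood at 1206 and 800 CPM against 2.79 and 14.0. HCST, the adaptor DAP10, stood at 657 and 619 CPM against 3.25 and 9.84. Of the 4 measured genes of the NK list HCST alone was called higher, 1 was lower and 2 were not called. NKG7 stood at 525 and 308 CPM against 2.97 and 10.2, and CCL5 at 1054 and 459 CPM against 14.8 and 17.6. All 4 measured T cell receptor complex genes beyond those of the rule, all 10 of receptor signalling and 8 of 9 killing genes were called higher. Among them LCK, the kinase that starts receptor signalling, stood at 182 and 205 CPM against 0.488 and 3.00, and BCL11B, the factor that commits cells to the T lineage, at 144 and 262 CPM against 0.837 and 2.18. In both libraries each of these levels was higher in lymphocyte than in other barcodes.

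General leukocyte and antigen presentation genes were also higher. All 10 measured pan-leukocyte genes beyond those of the rule, 10 of 12 adhesion genes and 7 of 11 presentation genes were called higher. B2M, the light chain of MHC class I, stood at 10382 and 10239 CPM against 1014 and 2432, and was found in 265 of 265 barcodes. PSMB8, an immunoproteasome subunit, stood at 946 and 780 CPM against 65.8 and 188. All 7 measured proliferation genes were called higher, with TOP2A at 257 and 30.7 CPM against 4.19 and 12.3, although only 12 and 4 barcodes held TOP2A. No glycolysis gene of 9 was called, and the 5 lower genes were NCAM1, RGS2, AREG, MX2 and EGR1.

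Among genes in no list, the beta-locus gene LOC102179835 stood at 1607 and 1189 CPM against 3.49 and 8.92. LOC108637283, a long non-coding RNA between UBXN11 and AIM1L, stood at 5762 and 4364 CPM against 14.6 and 43.4 and was found in 242 of 265 barcodes, at a median of 21 UMIs. It was found in 17 of 17 barcodes with CD4 alone and 116 of 121 with CD8 alone. GIMAP1, of a family of lymphocyte GTPases, stood at 286 and 349 CPM against 0.663 and 3.09. LOC102177285 and LOC102173834, protein-coding genes with no name in the files, stood at 542 and 844 CPM against 0.105 and 6.59, and at 691 and 448 CPM against 0.837 and 4.69. LOC102173834 was found in 132 barcodes and LOC102177285 in 64. PCSK1, a hormone-processing protease of endocrine cells, stood at 0 and 1.23 CPM against 444 and 764.

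Macrophages marked by C1Q, 125 in library 1 and 266 in library 4, were 1 of 2 other leukocyte classes set beside them. Both classes had to hold at least 2 of the leukocyte genes and fewer than 2 of the T cell genes of the rule. Higher T cell genes in lymphocyte barcodes thus partly follow from how both sides were chosen. Of 161 measured list genes, 43 were higher in lymphocyte barcodes, where 6.60% of 5210 genes were, and 36 were lower, where 18.3% were. The list median was 0.39 and that of all genes -0.20. The higher count was 99 with no count minimum, 22 at 5000 UMIs and 20 at 1000 UMIs. T cell and killing genes were again higher: CTSW stood at 1206 and 800 CPM against 0 and 3.67, LCK at 182 and 205 against 0 and 1.57, CD69 at 93.6 and 316 against 0 and 1.57, and ETS1, a lymphoid transcription factor, at 477 and 796 against 5.03 and 7.86. GNLY stood at 5913 and 3916 CPM against 1.26 and 94.8. Of 3 measured genes of the NK list 1 was higher and 2 were lower. No presentation gene of 11 was higher, and CD74 and CIITA were lower. These counts lay near the shares over all genes, 6.60% higher and 18.3% lower.

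Interferon response and immediate early genes were lower in lymphocyte barcodes than in these macrophages. Of 12 measured interferon genes 9 were lower (list median -1.88) and none was higher, and of 16 immediate early genes, which tissue digestion is known to raise, 10 were lower (list median -1.81). MX2, an antiviral GTPase, stood at 1.80 and 8.60 CPM against 89.2 and 203. IFI6 stood at 304 and 454 CPM against 1575 and 2897, and ISG15, a ubiquitin-like interferon product, at 55.8 and 83.5 against 362 and 368. ATF3, a stress factor, stood at 73.8 and 94.6 CPM against 669 and 911, DUSP1 at 245 and 226 against 1668 and 1280, and NFKBIA, the inhibitor of NF-kappaB, at 309 and 523 against 3221 and 1537. Each of these levels was lower in lymphocyte barcodes in both libraries.

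Against barcodes marked by S100A8 and S100A9, 24 in library 1 and 395 in library 4, 57 of 133 measured list genes were higher, where 14.9% of 2979 genes were, and 23 were lower, where 11.1% were. These barcodes too had been chosen with fewer than 2 of the T cell genes of the rule. The list median was 0.44 and that of all genes 0.45. GZMA stood at 182 and 236 CPM against 0 and 0, and CTSW at 1206 and 800 against 0 and 9.03. With no count minimum 119 were higher and 39 lower, and at 5000 UMIs 49 were lower. When only genes were kept whose equal level would give 20 UMIs on both sides, the higher count fell to 27, and without library 1 the lower count was 49. Lower genes included AREG, a growth factor of the EGF family, at 0 and 1.23 CPM against 523 and 1001, SRGN, the granule proteoglycan, at 1330 and 1569 against 5032 and 4190, and TYROBP at 113 and 172 against 3618 and 2693. Over all libraries, 197 TYROBP UMIs lay in the 19 lymphocyte barcodes without CD3 and 18 in the 246 with CD3. Of 9 glycolysis genes 5 were lower (list median -1.12), among them PKM at 173 and 165 CPM against 629 and 889 and GAPDH at 486 and 380 against 1225 and 803. Of 7 proliferation genes 6 were higher, and of 3 measured genes of the NK list 1 was higher and 2 were lower. Among genes in no list, FCN1, a lectin of monocytes and neutrophils, stood at 0 and 1.23 CPM against 6029 and 3019.

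**Figure D5:**
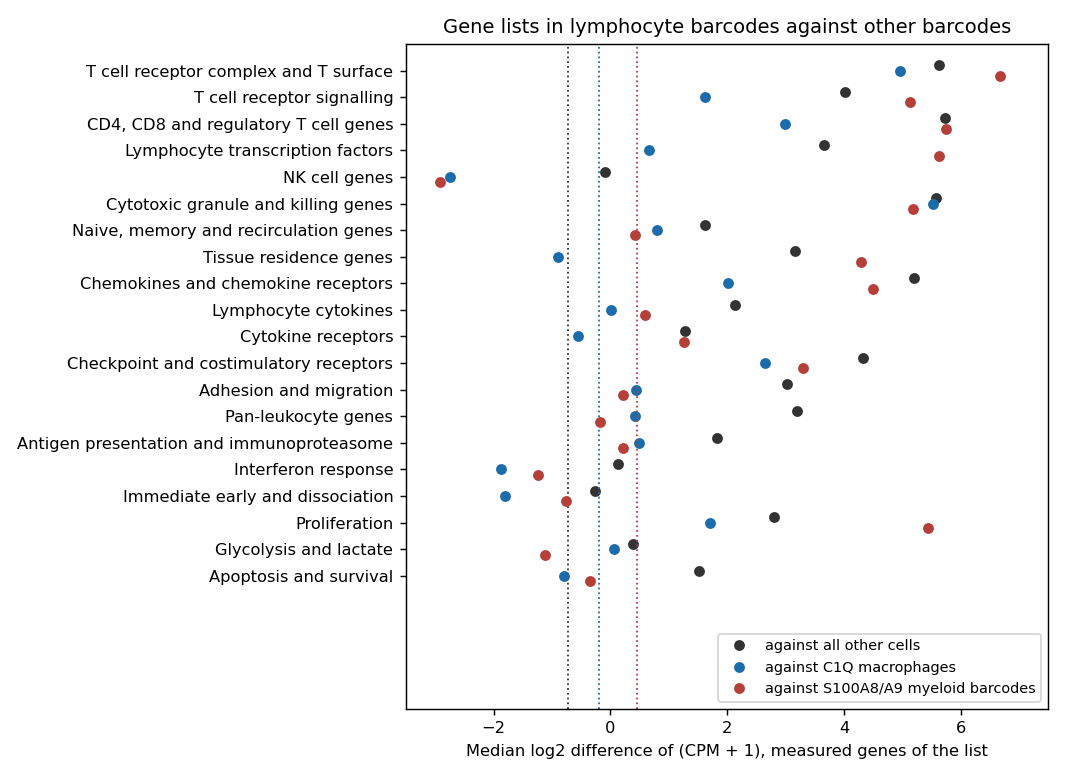
Median difference in log2(CPM + 1) of the measured genes of 20 lists (y axis) in lymphocyte barcodes against all other barcodes, C1Q macrophages and S100A8/S100A9 barcodes (x axis), with genes at 0 on 1 side in both libraries set to a floor of 3 counts per library; dotted lines give the median of all genes, -0.72, -0.20 and 0.45. T cell and killing lists lie to the right in all 3 comparisons, and against macrophages the interferon and immediate early lists, at -1.88 and -1.81, lie to the left of the line for all genes. C1Q and S100A8/S100A9 barcodes were chosen with fewer than 2 of the T cell genes of the rule.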

How the data were processed

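Single-cell RNA of goat pancreas was deposited as 1 unfiltered 10x matrix of whole UMI counts (27137 genes, 4 libraries). Its header gives Cell Ranger 5.0.1, while Cell Ranger 3.1.0 stands in the submitters' processing notes, beside Seurat 3.1.1. Genome build and annotation: not given in the sources used here. The deposited counts are whole numbers with unequal library totals, so they were taken as not normalized. Library totals were 43297855, 82817057, 65937591 and 55223412 UMIs.

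From these counts the barcodes were chosen, summed by library and expressed as CPM with numpy 2.4.6 and scipy 1.17.1. Differences were taken on log2(CPM + 1) and called by size, with no test. Shares were thinned to 3000 UMIs per barcode. Doublets were not removed. Scrublet in scanpy 1.11.5 scored them, and 33 of the 265 barcodes lay among the 5% highest scores of their library. The call rule was tested on simulated data, where it called some unchanged genes of low counts.

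The members, gene lists and comparisons were chosen with earlier results of these data known. Of 296 genes in the functional lists 269 were matched by symbol, and 259 remained without the genes of the rule. Named genes are the genes of the rule, the 30 called list genes with the highest absolute median difference per comparison, the T, NK, CD4/CD8 and killing lists, the 10 such genes in no list, and the 10 most abundant genes of libraries 1 and 4. A further part of the rule, on goat gene descriptions, could not be applied because the RefSeq table used here holds none. Receptor constant genes were chosen by biotype and neighbours, and other genes after their values were seen. The most abundant genes of both libraries included TMSB4X, TMSB10, TPT1, B2M and ribosomal protein genes. Of 27137 gene IDs 27103 matched RefSeq. Alternatives are described in the closing section.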

Additional observations from a re-analysis of the deposited data

How the results depend on the processing

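No paired analysis was possible because the library numbers carry no animal or replicate number. Of the alternative values, 131 stayed within the limit set and 36 moved. They are counts of genes and shares, which have no sign, so a reversal could not have been seen in them. A value within the limit could still differ clearly from the main value. Without library 1, 63 list genes were higher than in macrophages, where the main setting gave 43, and this counted as within the limit. With no count minimum, 162 list genes were higher than in other barcodes, 99 than in macrophages and 119 than in S100A8/S100A9 barcodes, where 39 were lower. At 5000 UMIs the higher counts were 60 and 22 for the first pair, and at 1000 UMIs they were 32 and 20. Against S100A8/S100A9 barcodes 48 were higher and 49 lower at 5000 UMIs, where the main setting gave 57 and 23. Genes lower than in other barcodes numbered 3 with a pseudocount of 10, 3 after centring, and 2 where equal levels would give 20 UMIs on both sides. By that last setting 27 were higher than in S100A8/S100A9 barcodes. The settings at 1000 UMIs, of equal levels and of barcodes with CD3 only were chosen after seeing the data. With equal weight of libraries, 27 genes were lower in CD8 than CD4 barcodes, and 17 higher without CD3.

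The share of lymphocyte barcodes was 7.03% in library 1, 0.457% in library 2 and 6.07% in library 4 at 1000 UMIs, and 1.71% in library 1 and 2.37% in library 4 at 5000. At 3 T cell genes it was 0.0207% in library 3 and 3.88% in library 4. The CD3 share was 77.3% at 5000 UMIs. The CD4 share was 7.17% unthinned and 0.377% at 2 UMIs, the CD8 share 46.4% unthinned, 22.3% at 2 UMIs and 25.8% at 5000, and the GNLY share 27.8% at 5000. The NCR1 share was 0% at 2 UMIs and at 5000. The cause was not tested.

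The comparisons with other cells rest on libraries 1 and 4, and leaving out each of these gave 108 to 116 higher and 10 to 12 lower list genes against other barcodes, 60 to 63 and 44 to 49 against macrophages, and 66 to 75 and 27 to 49 against S100A8/S100A9 barcodes. Leaving out each of the 4 libraries, CD8 against CD4 gave 19 to 29 higher and 4 to 17 lower, and barcodes without CD3 9 to 13 higher and 59 to 90 lower. Shares ran from 88.5% to 91.0% for CD3, 2.65% to 3.61% for CD4, 32.7% to 38.7% for CD8, 36.1% to 39.8% for GNLY and 0.602% to 2.65% for NCR1. Depth limits genes of few UMIs, and libraries 2 and 3 give little precision.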
